A study of Mus musculus with 8 samples.

Results

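The cytochrome P450 genes of families 1 to 4 are described here in intestinal epithelial cells (IECs) of mice with and without the RNA helicase DDX5. Members were the protein-coding genes in the 2 deposited count tables whose symbol is Cyp, a family number from 1 to 4, a subfamily letter and a gene number. The rule found 78 of the 40178 genes listed in either table, 77 of them in the ileum table, 54 in the colon table and 53 in both. Of these 78 members, 31 had at least 10 raw counts in 2 or more libraries and 47 did not.

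Cytochrome P450s are heme enzymes of the endoplasmic reticulum that take electrons from the reductase encoded by Por and insert an oxygen atom into their substrates. Families 1 to 3 are best known for oxidizing drugs, dietary chemicals, steroids and fatty acids, and family 4 for hydroxylating the end of fatty acid chains. In the gut they act on swallowed compounds before these reach the liver, and many of the genes are switched on by ligand-sensing receptors such as the aryl hydrocarbon receptor (Ahr), the pregnane X receptor (Nr1i2) and PPARα (Ppara).

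RNAseq was performed on IECs released with EDTA from the ileum and the colon at 8 weeks of age. WT IEC mice were Ddx5 +/+ and carried Vil1Cre, and DDX5ΔIEC mice were Ddx5 fl/fl and carried the same Vil1Cre, which is driven by the Villin1 promoter and deletes in epithelium, so both genotypes carried Cre. Each of the 4 groups held 2 libraries, from 2 pairs of cohoused littermates, and the labels do not say which ileum and colon libraries share a mouse.

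The libraries held between 11571061 and 22984283 counts on genes. Ddx5 was at 771 and 706 CPM (counts scaled to each library's size) in WT IEC colon against 367 and 355 in DDX5ΔIEC colon, and at 700.5 and 700.3 against 340 and 326 in the ileum, with log2 fold changes of -1.04 ± 0.089 and -1.07 ± 0.18 (SE). The epithelial markers Epcam, Vil1, Cdh1, Krt8 and Krt20 were each at 406 CPM or more in all 8 libraries. The T cell gene Cd3e reached at most 2.12 CPM, the B cell gene Cd79a 0.321, and the immune markers summed to 48.3 to 71.7 CPM in the ileum and 6.35 to 28.0 in the colon. Reads on Gm21738, Gm10801 and Gm10800, which are repeat-like, took 19.5% of the counts of DDX5ΔIEC ileum replicate 2 and at most 4.04% elsewhere. P450 members took 0.124% to 0.179% of protein-coding counts in the ileum and 0.206% to 0.258% in the colon (95% Wilson intervals within 0.121% to 0.181% and within 0.204% to 0.261%, for counting error only).

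The promoters of 7 members of the Cyp2c and Cyp3a groups are shown first, chosen after their values were seen, as 300 bases around the RefSeq start (GRCm38.p6). Capitals mark CAAAGTCCA, core letters of the element bound by HNF4 receptors, and AGGTCA, the half-site of many nuclear receptors, each searched on both strands. The Cyp2c genes lie in tandem on chromosome 19. Cyp2c65 (chr19:39060756-39061055, plus strand) and Cyp2c66 (chr19:39113648-39113947, plus strand) had their lowest colon level in DDX5ΔIEC replicate 1, while Cyp2c68 (chr19:39741052-39741351, minus strand) and Cyp2c69 (chr19:39886720-39887019, minus strand) had their highest level there.
Cyp2c65: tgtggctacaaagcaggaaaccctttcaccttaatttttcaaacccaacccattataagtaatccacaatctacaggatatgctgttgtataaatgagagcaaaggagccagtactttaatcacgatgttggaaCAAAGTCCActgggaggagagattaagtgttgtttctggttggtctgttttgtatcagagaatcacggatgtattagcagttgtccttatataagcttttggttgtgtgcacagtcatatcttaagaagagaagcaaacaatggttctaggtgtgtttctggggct
Cyp2c66: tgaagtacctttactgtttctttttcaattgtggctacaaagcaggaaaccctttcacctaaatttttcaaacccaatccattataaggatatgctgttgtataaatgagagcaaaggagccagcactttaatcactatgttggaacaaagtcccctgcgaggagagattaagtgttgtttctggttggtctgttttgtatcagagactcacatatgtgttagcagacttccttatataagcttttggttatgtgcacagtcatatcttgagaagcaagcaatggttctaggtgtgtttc
Cyp2c68: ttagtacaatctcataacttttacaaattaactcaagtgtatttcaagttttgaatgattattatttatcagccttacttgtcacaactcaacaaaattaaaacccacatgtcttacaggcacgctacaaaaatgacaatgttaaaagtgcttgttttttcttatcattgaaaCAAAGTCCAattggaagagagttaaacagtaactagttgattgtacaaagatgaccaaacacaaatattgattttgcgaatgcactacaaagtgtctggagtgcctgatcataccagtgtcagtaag
Cyp2c69: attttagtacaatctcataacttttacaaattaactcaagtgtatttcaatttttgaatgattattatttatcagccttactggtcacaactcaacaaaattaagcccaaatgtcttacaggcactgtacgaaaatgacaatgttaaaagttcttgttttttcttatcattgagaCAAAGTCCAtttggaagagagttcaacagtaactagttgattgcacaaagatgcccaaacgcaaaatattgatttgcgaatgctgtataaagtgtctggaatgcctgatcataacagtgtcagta

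Aligned end to end, the Cyp2c65 and Cyp2c66 windows were identical at 256 of 271 aligned bases and the Cyp2c68 and Cyp2c69 windows at 277 of 296, whereas Cyp2c65 and Cyp2c68 shared 161 of 255. CAAAGTCCA stood at position -116 of Cyp2c65, -77 of Cyp2c68 and -75 of Cyp2c69, counted from the start site, and these letters were not in the Cyp2c66 window.

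The Cyp3a genes shown are those that were higher in DDX5ΔIEC ileum. They lie in one stretch of chromosome 5: Cyp3a11 (chr5:145879805-145880104), Cyp3a25 (chr5:146009569-146009868) and Cyp3a44 (chr5:145805825-145806124), all on the minus strand.
Cyp3a11: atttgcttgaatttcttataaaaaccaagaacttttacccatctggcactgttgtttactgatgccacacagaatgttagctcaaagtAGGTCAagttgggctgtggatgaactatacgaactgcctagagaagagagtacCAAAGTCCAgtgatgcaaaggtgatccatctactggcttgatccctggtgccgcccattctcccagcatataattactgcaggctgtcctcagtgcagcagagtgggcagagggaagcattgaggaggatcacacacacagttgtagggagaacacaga
Cyp3a25: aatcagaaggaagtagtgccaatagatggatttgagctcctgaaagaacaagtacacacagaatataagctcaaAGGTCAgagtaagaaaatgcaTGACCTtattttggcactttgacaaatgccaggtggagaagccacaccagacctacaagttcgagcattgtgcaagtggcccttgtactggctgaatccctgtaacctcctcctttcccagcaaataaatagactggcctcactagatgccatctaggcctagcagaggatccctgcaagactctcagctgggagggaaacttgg
Cyp3a44: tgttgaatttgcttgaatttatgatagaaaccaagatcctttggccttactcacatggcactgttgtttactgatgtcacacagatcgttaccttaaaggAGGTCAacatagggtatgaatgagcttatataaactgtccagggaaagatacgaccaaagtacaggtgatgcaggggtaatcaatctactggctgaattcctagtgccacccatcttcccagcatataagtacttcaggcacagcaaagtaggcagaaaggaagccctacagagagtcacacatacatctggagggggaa

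The Cyp3a11 and Cyp3a44 windows were identical at 225 of 284 aligned bases, and Cyp3a11 and Cyp3a25 at 167 of 275. AGGTCA stood at -162 of Cyp3a11, at -150 of Cyp3a44 and at -176 of Cyp3a25, which held a second copy on the other strand at -155. CAAAGTCCA stood at -109 of Cyp3a11. Of 32851 mouse promoter windows of this length, 0.475% held CAAAGTCCA and 16.3% held AGGTCA, against 10 and 19 of the 70 windows of members. Other motifs searched but not marked were GCGTG, the core of the aryl hydrocarbon receptor element, and TATAAA, the TATA box. GCGTG was in 32.4% of all windows and 14 of the 70, and TATAAA in 13.6% and 29 of the 70. These 70 windows belonged to 63 members, and windows of sister genes are near copies of each other. The motif CAAAGTCCA was chosen after the sequences were seen. A match is a description of the letters and not of binding.

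Most of the family was silent or nearly so in both tissues. Of the 47 members under the count limit, 37 never exceeded 5 counts in any library, 41 had no library at 10 counts, and 6 had 1 library at 10 to 13 counts (Cyp1a1, Cyp2c23, Cyp2c40, Cyp2c67, Cyp4f18 and Cyp4f39). Whole subfamilies that are prominent in liver were among them. None of the 4 Cyp2a, 5 Cyp2b and 8 Cyp4a genes exceeded 8 counts in any library, and Cyp2e1, which oxidizes ethanol, had at most 4. Cyp1a1, the classic target of the aryl hydrocarbon receptor, had 3, 11, 4 and 2 counts in the ileum libraries (WT IEC 1 and 2, then DDX5ΔIEC 1 and 2) and 0, 0, 1 and 3 in the colon libraries. At these counts a difference between the genotypes was not detectable. Just inside the limit were Cyp2j13, Cyp4x1 and Cyp2c66, with highest counts of 12, 22 and 29.

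Of the 31 members above the limit, 23 had at least 1 count in all 8 libraries and 17 had at least 10. Per kilobase of exon, one gene led in each tissue. Cyp2c55, which oxidizes arachidonic and linoleic acid, was at 435 ± 16.7 CPM per kilobase in WT IEC colon (SD, n = 2) and 467 ± 126 in DDX5ΔIEC colon. It took 51.4% and 55.4% of all P450 counts in the WT IEC colon libraries and 46.9% and 54.9% in the DDX5ΔIEC ones (95% Wilson intervals 50.8% to 51.9%, 54.9% to 55.9%, 46.3% to 47.5% and 54.5% to 55.4%). Cyp4f14, which hydroxylates the end of leukotriene B4 and long fatty acids, was at 251 ± 25.2 CPM per kilobase in WT IEC ileum and 312 ± 65.1 in DDX5ΔIEC ileum. It took 45.5% and 47.0% of P450 counts in WT IEC ileum and 50.3% and 46.9% in DDX5ΔIEC ileum (intervals 44.9% to 46.1%, 46.3% to 47.7%, 49.5% to 51.0% and 46.0% to 47.8%).

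**Figure D1:**
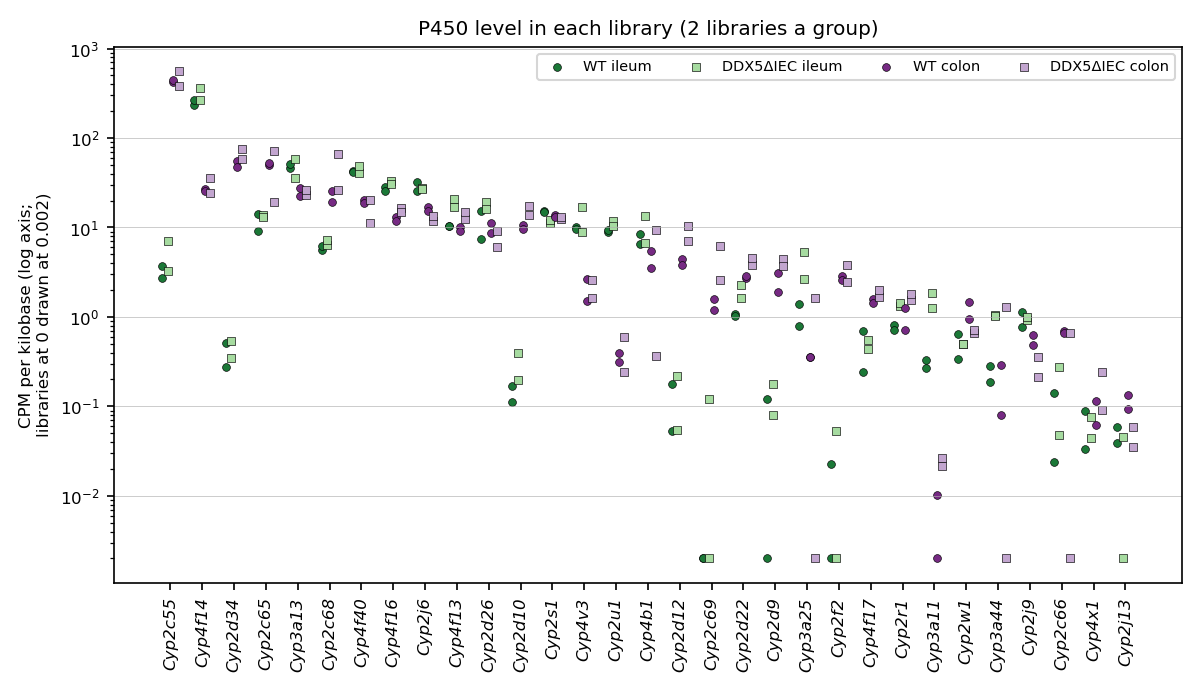
Level of each of the 31 members with at least 10 counts in 2 libraries, as CPM per kilobase on a log axis, with 1 point per library and libraries at 0 drawn at 0.002. Cyp2c55 in the colon (435 in WT IEC) and Cyp4f14 in the ileum (251 in WT IEC) stand above all others, and Cyp2c55, Cyp2d34, Cyp2d10 and Cyp2u1 are among those with a wide gap between the tissues.

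The levels fell away steeply below the leaders. In WT IEC colon the next genes were Cyp2c65 at 51.4 ± 2.34 and Cyp2d34 at 51.4 ± 6.49 CPM per kilobase, which did not differ beyond their spread. They were followed by Cyp4f14 at 26.2 ± 0.820, Cyp3a13 at 24.9 ± 3.51, Cyp2c68 at 22.5 ± 4.62, Cyp4f40 at 19.4 ± 1.02, Cyp2j6 at 16.2 ± 1.16, Cyp2s1 at 13.5 ± 0.613 and Cyp4f16 at 12.5 ± 0.888. In WT IEC ileum Cyp4f14 was followed by Cyp3a13 at 49.0 ± 3.38, Cyp4f40 at 42.0 ± 1.25, Cyp2j6 at 28.9 ± 4.92 and Cyp4f16 at 27.0 ± 1.61. Cyp3a13 is the member of the drug-oxidizing Cyp3a group that dominates in mouse intestine, and Cyp2j6 and Cyp2s1 belong to groups known for acting on polyunsaturated fatty acids. Then came Cyp2s1 at 15.0 ± 0.439, Cyp2c65 at 11.5 ± 3.53, Cyp2d26 at 11.2 ± 5.45, Cyp4f13 at 10.3 ± 0.106 and Cyp4v3, a fatty acid hydroxylase, at 9.88 ± 0.246. The levels of Cyp2c65, Cyp2d26 and Cyp4f13 in the ileum lay within their spread of each other, as did those of Cyp4f14, Cyp3a13 and Cyp2c68 in the colon. The highest members of the smaller subfamilies in either WT IEC tissue were Cyp4b1 at 7.52 ± 1.32 in the ileum, Cyp2f2 at 2.74 ± 0.191 in the colon, Cyp2w1 at 1.21 ± 0.351 in the colon and Cyp2r1, a vitamin D 25-hydroxylase, at 0.984 ± 0.374 in the colon. Cyp4x1 was at 0.0892 ± 0.0374 in the colon, and Cyp2u1 at 9.24 ± 0.339 in the ileum.

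The comparison of the tissues within a genotype asked which members belong to the ileum and which to the colon. In WT IEC, 23 of 29 members tested differed at an adjusted p under 0.05 (edgeR's quasi-likelihood test), 10 of them higher in the ileum and 13 higher in the colon. Of all 12819 protein-coding genes tested, 24.9% were higher in the ileum and 23.1% higher in the colon. In DDX5ΔIEC, 10 of 28 members were higher in the ileum and 10 higher in the colon, against 15.2% and 12.3% of protein-coding genes. Of the members, 18 were called in both genotypes, all 18 in the same direction. For some called members the count filter fixed that direction. Cyp2f2, Cyp2c66, Cyp2c69, Cyp2d9 and Cyp2d10 had under 10 counts in every ileum library, and Cyp3a11 in every colon library. Cyp2d12 reached 10 counts in the ileum only in WT IEC replicate 1. These genes could enter the test only through the tissue where they were high, so their agreement between genotypes is no separate result. The median log2 ratio of ileum over colon was 0.10 over the members in WT IEC and 0.18 in DDX5ΔIEC, against -0.0080 and 0.014 over all protein-coding genes tested. Members went both ways, and the summed share of P450 counts given above was higher in every colon library than in every ileum library.

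The members of the colon were mostly Cyp2c and Cyp2d genes. Cyp2c55 was at 844 and 891 CPM in WT IEC colon and 753 and 1108 in DDX5ΔIEC colon, against 5.49, 7.42, 6.46 and 14.2 CPM in the WT IEC and DDX5ΔIEC ileum libraries. The lowest colon library was above the highest ileum library by a wide margin, and the log2 ratio of ileum over colon was -7.09 ± 0.17 (SE) in WT IEC and -6.47 ± 0.49 in DDX5ΔIEC (edgeR, adjusted p = 1.24e-07 and 7.49e-04). Cyp2d34, of a subfamily that in the mouse is an expanded cluster on chromosome 15, was at 155 and 130.0 CPM in WT IEC colon and 209 and 164 in DDX5ΔIEC colon. In the ileum it was at 1.43 and 0.763 CPM in WT IEC and at most 1.499 in DDX5ΔIEC, and the log2 ratio was -6.94 ± 0.21 in WT IEC and -7.19 ± 0.27 in DDX5ΔIEC (edgeR, adjusted p = 2.93e-07 and 1.34e-04). Its neighbours Cyp2d10, Cyp2d12 and Cyp2d9 showed log2 ratios of -6.20, -5.01 and -5.06 in WT IEC and -5.63, -5.91 and -4.88 in DDX5ΔIEC. In those 3 genes, too, no ileum library reached any colon library. Cyp2d9 had 7 and 0 counts in WT IEC ileum, and its ratio without WT IEC ileum replicate 1, which leaves 0 counts, has no fixed size. Cyp2d26 of the same cluster was at 13.2 and 27.1 CPM in WT IEC ileum and 20.0 and 15.5 in WT IEC colon, and the groups overlapped. In DDX5ΔIEC it was at 34.1 and 28.7 CPM in the ileum and 10.9 and 16.2 in the colon. There it was called higher in the ileum (log2 ratio 1.23 ± 0.23; edgeR, adjusted p = 0.0137), opposite to its neighbours.

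A few counts decided the ratio of 3 members. Cyp2f2, best known from the lung, had 1 and 0 counts in WT IEC ileum against 111 and 120 in WT IEC colon, a ratio of 199.6 with a 95% exact counting interval of 35.5 to 7918. Cyp2c69 had 0 counts in both WT IEC ileum libraries and 54 and 48 in WT IEC colon, which is at least 29.4-fold higher in the colon when 3 counts are taken as the floor over the ileum group, with an exact 95% lower limit of 23.5 from the counts themselves. Cyp3a11, the main inducible Cyp3a enzyme of liver and gut, had 30 and 24 counts in WT IEC ileum and 1 and 0 in WT IEC colon, a ratio of 62.5 (exact interval 10.7 to 2513). All other members of the colon in WT IEC had smaller ratios. Their log2 ratios ran from Cyp2c66 (-3.18) through Cyp2c65 (-2.17), Cyp2c68 (-1.94), Cyp4f17 (-1.77) and Cyp2d22 (-1.40) to Cyp2w1 (-1.36). In DDX5ΔIEC Cyp2c65 (-1.72 ± 0.57) and Cyp2w1 (-0.45 ± 0.41) were not called (edgeR, adjusted p = 0.0768 and 0.467), and Cyp2c66 was not tested.

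The members of the ileum came from several subfamilies. Cyp2u1, a fatty acid hydroxylase, was at 47.2 and 49.7 CPM in WT IEC ileum and 61.4 and 54.5 in DDX5ΔIEC ileum, against 1.28 to 3.09 CPM in the 4 colon libraries. The log2 ratio was 4.72 ± 0.14 in WT IEC and 4.78 ± 0.38 in DDX5ΔIEC (edgeR, adjusted p = 2.79e-07 and 8.87e-04), and the tissues did not overlap. Of the 50-base words of Cyp2u1 transcripts, 12.3% also occur in other genes, 9.55% in the transcript 4930534D22Rik. Cyp4f14 was at 561, 646, 861 and 640 CPM in the ileum libraries and 64.5, 61.7, 58.2 and 86.8 in the colon libraries, in the order WT IEC 1 and 2 and DDX5ΔIEC 1 and 2. Its log2 ratio was 3.26 ± 0.11 in WT IEC and 3.40 ± 0.29 in DDX5ΔIEC (edgeR, adjusted p = 4.58e-07 and 0.00117). Cyp4v3 had a log2 ratio of 2.25 and 2.65 in the 2 genotypes, and Cyp4f40, Cyp4f16, Cyp3a13 and Cyp2j6 had ratios between 0.83 and 1.53 in both. Cyp3a25 and Cyp4b1 were called in WT IEC (log2 ratios 1.65 and 0.72) and not in DDX5ΔIEC (2.29 and 1.07, with SEs over 1), where the colon replicates of both genes were far apart.

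**Figure D2:**
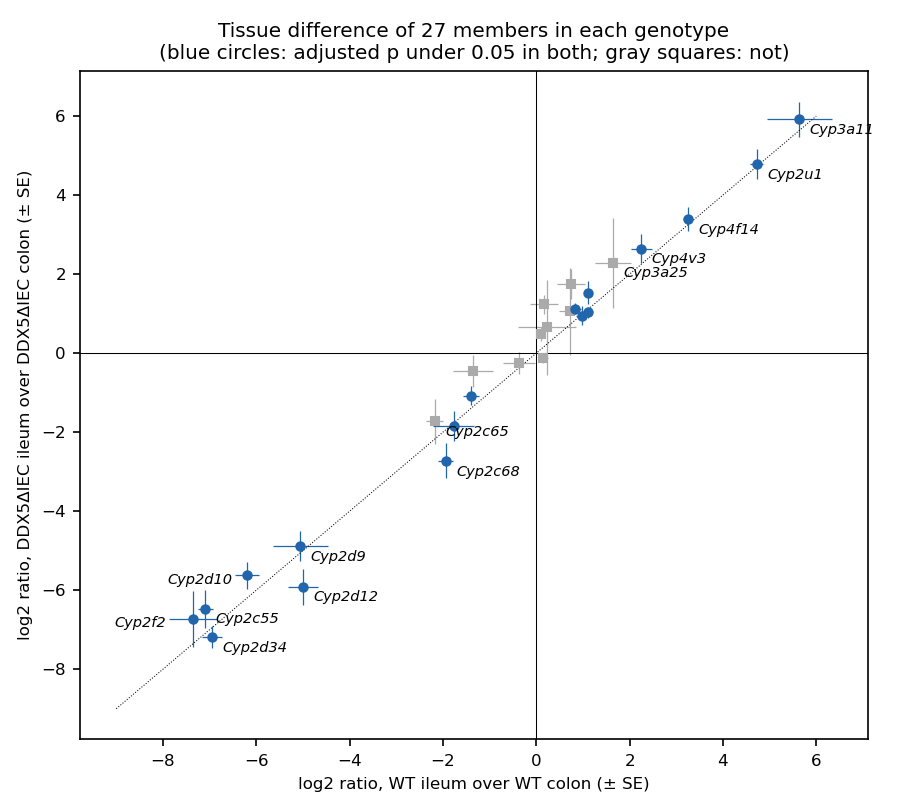
Log2 ratio of ileum over colon in WT IEC (horizontal axis) and in DDX5ΔIEC (vertical axis) for the 27 members tested in both with a count in WT IEC ileum, with standard errors. Members lie close to the dotted line of equal ratios, from Cyp2f2, Cyp2c55 and Cyp2d34 at the colon end to Cyp3a11, Cyp2u1 and Cyp4f14 at the ileum end.

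In the comparison of DDX5ΔIEC with WT IEC in the ileum, every member that passed the study's criterion (an absolute log2 fold change of at least 0.5 with an unadjusted p under 0.05) was higher in DDX5ΔIEC. These were 8 of 22 members tested: Cyp3a11, Cyp3a44, Cyp3a25, Cyp2d22, Cyp4f13, Cyp2r1, Cyp2d26 and Cyp2c55. Cyp3a44 passed the count filter only through the DDX5ΔIEC libraries (22 and 19 counts, against 8 and 8 in WT IEC). It could enter the test only as a higher member, so its direction was fixed by the filter. Of 12064 protein-coding genes tested, 3.78% were called higher and 2.83% lower. No member was called lower, and Cyp2s1 alone had an unadjusted p under 0.05 with a negative fold change (-0.36; edgeR, adjusted p = 0.306). The median log2 fold change was 0.28 over the 22 members and 0.0040 over all protein-coding genes, and 19 of the 22 were positive. At an adjusted p under 0.05, 3 members were called, Cyp3a11, Cyp3a25 and Cyp4f13, against 0.705% of protein-coding genes. Without the replicate block 0 members reached that limit (edgeR, 7 at an unadjusted p under 0.05), and DESeq2 with the block gave 2. Leaving out any 1 of the 4 ileum libraries, or fitting all 8 libraries together, again gave 0 by edgeR (5 to 10 at an unadjusted p under 0.05).

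The Cyp3a genes moved most. Cyp3a11 was at 1.38 and 1.67 CPM in WT IEC ileum and 9.37 and 6.42 in DDX5ΔIEC ileum, from 30, 24, 100 and 60 counts. Both DDX5ΔIEC libraries were above both WT IEC libraries, and the log2 fold change was 2.39 ± 0.31 (SE; edgeR, adjusted p = 0.00809). Leaving out each library in turn gave 2.09 to 2.64, past the criterion each time. Cyp3a25 was at 2.91 and 1.67 CPM in WT IEC and 11.2 and 5.57 in DDX5ΔIEC, a log2 fold change of 1.86 ± 0.26 (edgeR, adjusted p = 0.0151), and 1.25 without DDX5ΔIEC replicate 1. Cyp3a44 was at 0.369 and 0.555 CPM in WT IEC and 2.06 and 2.03 in DDX5ΔIEC, from 8, 8, 22 and 19 counts, a log2 fold change of 2.17 ± 0.48 (edgeR, adjusted p = 0.0791). For both genes the DDX5ΔIEC libraries lay above the WT IEC libraries, and with all 8 libraries in one fit neither gene kept its call (edgeR, adjusted p = 0.527 and 0.571). The 3 genes are close relatives. Of their 50-base words, 6.73% in Cyp3a11, 26.8% in Cyp3a25 and 26.5% in Cyp3a44 also occur in other genes. The gene sharing most was Cyp3a41a for Cyp3a11 (2.88% of words) and Cyp3a44 (11.5%), and Cyp3a59 for Cyp3a25 (25.2%). Uniquely mapped reads therefore cover these genes in part, and a division of reads among them is uncertain. Cyp3a13, 0% of whose words are shared, was at 138 and 152 CPM in WT IEC and 173 and 105 in DDX5ΔIEC. Its groups overlapped, with a log2 fold change of -0.098 ± 0.19 (edgeR, adjusted p = 0.898), and at a level far above that of the others.

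The other members called in the ileum rose by less. Cyp4f13, of the leukotriene and fatty acid hydroxylase group, was at 34.7 and 34.2 CPM in WT IEC and 69.6 and 56.0 in DDX5ΔIEC, with a log2 fold change of 0.86 ± 0.14 (edgeR, adjusted p = 0.0270), and it passed the criterion with any library left out (0.70 to 1.02). Cyp2d22 was at 4.25 and 4.02 CPM in WT IEC and 8.90 and 6.32 in DDX5ΔIEC (log2 fold change 0.88 ± 0.24), and Cyp2r1 at 1.71 and 1.53 against 2.81 and 3.00 (0.84 ± 0.36). In these 3 genes the genotypes did not overlap. Cyp2d26 was at 13.2 and 27.1 CPM in WT IEC and 34.1 and 28.7 in DDX5ΔIEC (0.73 ± 0.25), and Cyp2c55 at 5.49 and 7.42 against 6.46 and 14.2 (0.61 ± 0.23). Both calls depended on the replicate block: without it, and with all 8 libraries in one fit, neither gene passed (edgeR, adjusted p = 0.639 and 0.669 without the block). With DESeq2 Cyp2c55, Cyp2r1 and Cyp2d22 did not pass. The Cyp2c55 groups overlapped and its call rested on DDX5ΔIEC replicate 2: without it the log2 fold change was 0.023, and without DDX5ΔIEC replicate 1 it was 1.16. Without WT IEC replicate 1, Cyp2d26 had a log2 fold change of 0.21 and Cyp2c55 of 0.47, and neither passed. Cyp2d26 also lost its call without either DDX5ΔIEC library (0.53 and 0.79) and was at 1.25 without WT IEC replicate 2, Cyp2c55 without WT IEC replicate 2 (0.91), Cyp2d22 without DDX5ΔIEC replicate 1 (0.61), and Cyp2r1 without any 1 of the 4 libraries (0.76 to 0.92).

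**Figure D3:**
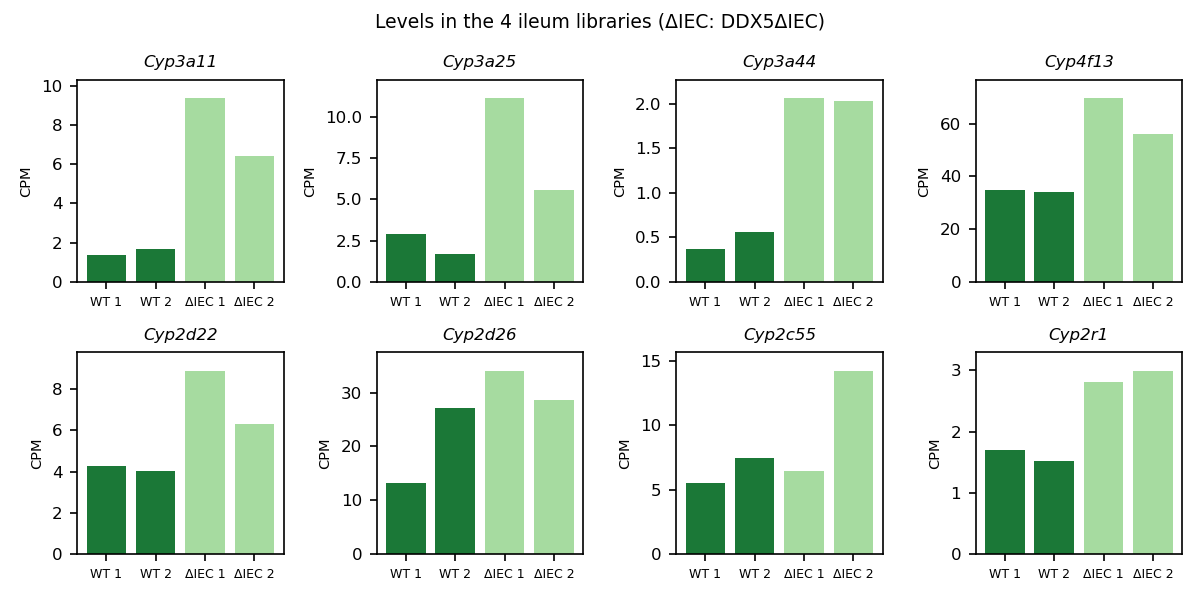
Level in CPM of the 8 members called in the ileum, 1 bar per library, WT IEC in dark and DDX5ΔIEC in light green. Both DDX5ΔIEC bars stand above both WT IEC bars for all but Cyp2c55, whose DDX5ΔIEC replicate 1 (6.46) lies between the WT IEC libraries (5.49 and 7.42).

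Of the 10 members highest per kilobase in WT IEC ileum, Cyp2d26 and Cyp4f13 passed the criterion and the other 8 did not. Cyp4f14 had a log2 fold change of 0.30 ± 0.21 and Cyp2u1, the next gene after these 10, of 0.26 ± 0.14, and Cyp4f40, Cyp2j6 and Cyp3a13 lay between -0.098 and 0.082. Cyp4v3 (0.33 ± 0.19) and Cyp4b1 (0.39 ± 0.26) were highest in DDX5ΔIEC replicate 1, at 64.7 and 30.3 CPM, and DDX5ΔIEC replicate 2 lay within or near the WT IEC range for both genes. Markers of absorptive cells and of other cell types differed between the same libraries. The 6 villus enterocyte markers summed to 14671 CPM in DDX5ΔIEC replicate 1 and to 9089, 10477 and 10688 in the other 3 ileum libraries, and 1 of the 6, Alpi, was called (log2 fold change 0.56 ± 0.21). Sis went the other way, at 2903 CPM in DDX5ΔIEC replicate 1 against 2922 and 4000 in WT IEC. The epithelial markers summed to 14785.5 CPM in DDX5ΔIEC replicate 1 against 10847 to 12265 elsewhere in the ileum, and the goblet markers to 29876 against 21440 to 26172. The goblet marker Zg16 was called higher (0.77 ± 0.21). Markers of crypt and cycling cells were lowest in that library. The part of these markers in the results was not tested, and in bulk RNA fewer cells of a type and less RNA per cell cannot be told apart.

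In the colon, every called member was again higher in DDX5ΔIEC, and these were mostly Cyp2d and Cyp2c genes: Cyp2c69, Cyp2d12, Cyp2c68, Cyp2r1, Cyp2d9, Cyp2d10 and Cyp2d22, 7 of 28 members tested. Of 12557 protein-coding genes, 2.64% were called higher and 4.01% lower. No member was called lower, and 1 with a negative fold change had an unadjusted p under 0.05, Cyp2j6 (-0.37; edgeR, adjusted p = 0.359). The median log2 fold change was 0.16 over the members and -0.0015 over all protein-coding genes. At an adjusted p under 0.05 edgeR called 0 members, as it called 0.0% of protein-coding genes. At an unadjusted p under 0.05 it put 11 members, and 1615 of the 12557 protein-coding genes. DESeq2 with the block put 2 members under that limit, Cyp2d12 (adjusted p = 0.00496) and Cyp2c68 (adjusted p = 0.0160).

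The 6 detected Cyp2d genes did not all move the same way in the colon. Cyp2d12 was at 17.2 and 14.9 CPM in WT IEC and 40.3 and 27.6 in DDX5ΔIEC, a log2 fold change of 1.05 ± 0.13 (edgeR, adjusted p = 0.166) that passed the criterion without each library in turn (0.77 to 1.32). Cyp2d10 was at 17.5 and 16.0 CPM against 28.4 and 22.6 (0.58 ± 0.11), Cyp2d9 at 8.14 and 5.11 against 11.7 and 9.75 (0.71 ± 0.19), and Cyp2d22 at 10.7 and 11.1 against 14.7 and 18.0 (0.57 ± 0.14). Cyp2d34, the most abundant, was at 155 and 130.0 CPM against 209 and 164, and with 0.37 ± 0.081 it stayed below the fold limit (edgeR, adjusted p = 0.279). Cyp2d26 was at 20.0 and 15.5 CPM against 10.9 and 16.2, its groups overlapped, and its fold change was negative (-0.40 ± 0.24). Between 4.13% (Cyp2d22) and 35.8% (Cyp2d10) of the 50-base words of these genes occur in other genes. For each of them the gene sharing most was another Cyp2d gene. With DESeq2 Cyp2d9 and Cyp2d22 missed the p limit, as did Cyp2d9 with all 8 libraries in one fit. Without WT IEC replicate 1 Cyp2d22 was at 0.54 and past the p limit no longer, without DDX5ΔIEC replicate 2 it was at 0.42, without WT IEC replicate 2 Cyp2d9 was at 0.39, and without DDX5ΔIEC replicate 1 Cyp2d10 was at 0.42.

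Some markers of the absorptive and goblet cells of the colon differed in the same comparison. Of the 5 colonocyte markers, Aqp8, Slc26a3 and Car4 were called higher in DDX5ΔIEC (log2 fold changes 0.79, 0.70 and 0.63). Car1 (0.0065) and Cdhr5 (0.27) were not called, and Car1 was at 1702 and 2962 CPM in the DDX5ΔIEC libraries. Car4 and Cdhr5 were higher in WT IEC ileum than in WT IEC colon (log2 ratios 1.07 and 1.08), so they do not mark the colon alone. Of the 4 goblet markers Clca1 and Fcgbp were called lower (-1.57 and -0.61) while Muc2 and Zg16 were not called (0.092 and 0.12). Muc2 was highest in DDX5ΔIEC replicate 2, at 19236 CPM. The colonocyte markers summed to 3554 and 3823 CPM in WT IEC colon and 4375 and 4877 in DDX5ΔIEC colon, and the goblet markers to 44296 and 49177 against 25868 and 39386. Of the tested Paneth and immune markers, 2 of 3 and 2 of 4 were called lower. The others were not called: Lyz1 had a log2 fold change of 0.21, Cd3e of -1.27 and Jchain of 1.60. The part of these markers in the Cyp2d and Cyp2c results was not tested.

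**Figure D4:**
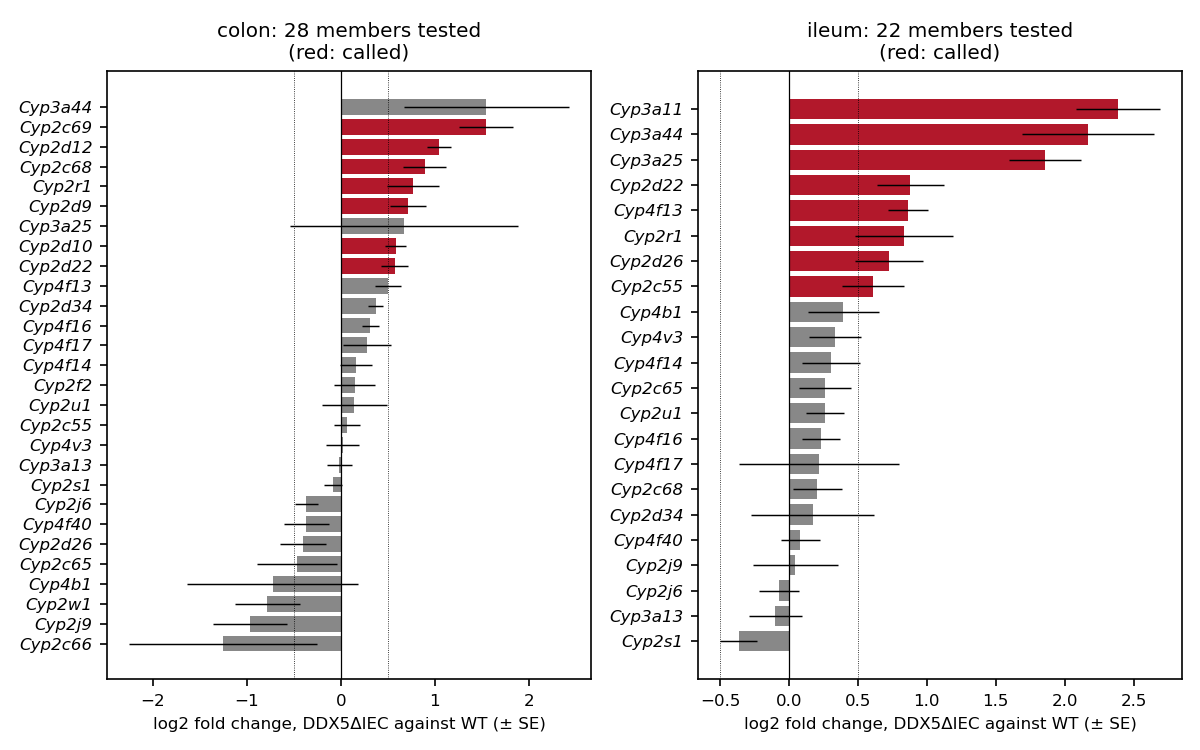
Log2 fold change of DDX5ΔIEC against WT IEC for every member tested, 28 in the colon (left) and 22 in the ileum (right), with standard errors. Red bars passed the criterion, and dotted lines mark a log2 fold change of 0.5 either way. All red bars point to higher levels in DDX5ΔIEC, led by Cyp2c69 in the colon and Cyp3a11 in the ileum.

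Cyp2c68 and Cyp2c69 were highest in 1 colon library, and the call of Cyp2c68 rested on it. Cyp2c68 was at 44.5 and 33.2 CPM in WT IEC colon and 113 and 45.4 in DDX5ΔIEC colon (log2 fold change 0.89 ± 0.23; edgeR, adjusted p = 0.316), and Cyp2c69 at 2.84 and 2.11 against 11.1 and 4.56 (1.54 ± 0.29; adjusted p = 0.260 by edgeR). In both genes DDX5ΔIEC replicate 1 stood far above the other 3 libraries, and DDX5ΔIEC replicate 2 was also above both WT IEC libraries, by little for Cyp2c68 and by more for Cyp2c69. Without DDX5ΔIEC replicate 1 the log2 fold changes were 0.22, below the criterion, and 0.88, past it. Without DDX5ΔIEC replicate 2 Cyp2c68 was at 1.53. Cyp2c68 also lost its call without either WT IEC library (1.23 and 0.82), and Cyp2c69 without WT IEC replicate 2 (1.45). Of their 50-base words, 43.3% and 54.3% occur in other genes, mostly in Cyp2c40, which had 2 and 1 counts in WT IEC colon and 10 and 5 in DDX5ΔIEC colon, so the division of reads among the 3 genes is uncertain.

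The same library was at the low end for another set of members. Cyp2c65 was at 96.0 and 102 CPM in WT IEC colon and 137 in DDX5ΔIEC replicate 2, and at 37.1 in DDX5ΔIEC replicate 1. Cyp4b1, which activates protoxins, was at 7.93, 12.4 and 21.1 CPM in those 3 libraries and 0.828 in DDX5ΔIEC replicate 1. Cyp3a25, Cyp3a44 and Cyp2c66 had 14, 3 and 26 counts in WT IEC replicate 1, 17, 13 and 29 in WT IEC replicate 2, and 74, 56 and 28 in DDX5ΔIEC replicate 2, but 0 in DDX5ΔIEC replicate 1. A count of 0 in that library of 16883951 counts allows up to 3 counts.

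In DDX5ΔIEC colon, 8 of the 31 members differed between the 2 replicates by 2-fold or more after 0.5 CPM was added to each, against 0 of 31 in WT IEC colon, 1 in WT IEC ileum and 1 in DDX5ΔIEC ileum. Of protein-coding genes with a mean of at least 10 counts in the tissue, 3.32% differed as much between the DDX5ΔIEC colon replicates. These 8 were Cyp2c65, Cyp2c66, Cyp2c68, Cyp2c69, Cyp2u1, Cyp3a25, Cyp3a44 and Cyp4b1. Only Cyp2c68, Cyp2c69 and Cyp2u1 were higher in replicate 1. Cyp2c55 at 753 and 1108 CPM and Cyp2d34 at 209 and 164 CPM were within 2-fold.

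Genes that mark position along the gut differed between the same libraries. Hoxd13, a gene of the distal gut, was at 68.8 CPM in DDX5ΔIEC colon replicate 1 and between 18.9 and 21.7 in the other 3 colon libraries, and Hoxb13 was at 282 against 159 to 195. Slc10a2, the ileal bile acid transporter, was at 9.27 CPM in that library against 39.0 to 65.4. The other ileum region markers did not follow it: Fabp6 was at 2.76 CPM in that library, above both WT IEC libraries (1.26 and 1.67) and below DDX5ΔIEC replicate 2 (3.56), and Gata4 at 0.386 against 0.352 to 0.840. The 3 colon region markers summed to 550.3 CPM in it and to 337 to 368 in the others. The part of the stretch of colon sampled in the P450 results was not tested.

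Without DDX5ΔIEC colon replicate 1 the log2 fold changes were 2.71 for Cyp3a44, 2.16 for Cyp3a25 and 1.03 for Cyp4b1. Without DDX5ΔIEC colon replicate 2 Cyp4b1 was at -3.63. For Cyp4b1 and Cyp3a25 the 2 DDX5ΔIEC libraries lay on opposite sides of WT IEC colon.

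**Figure D5:**
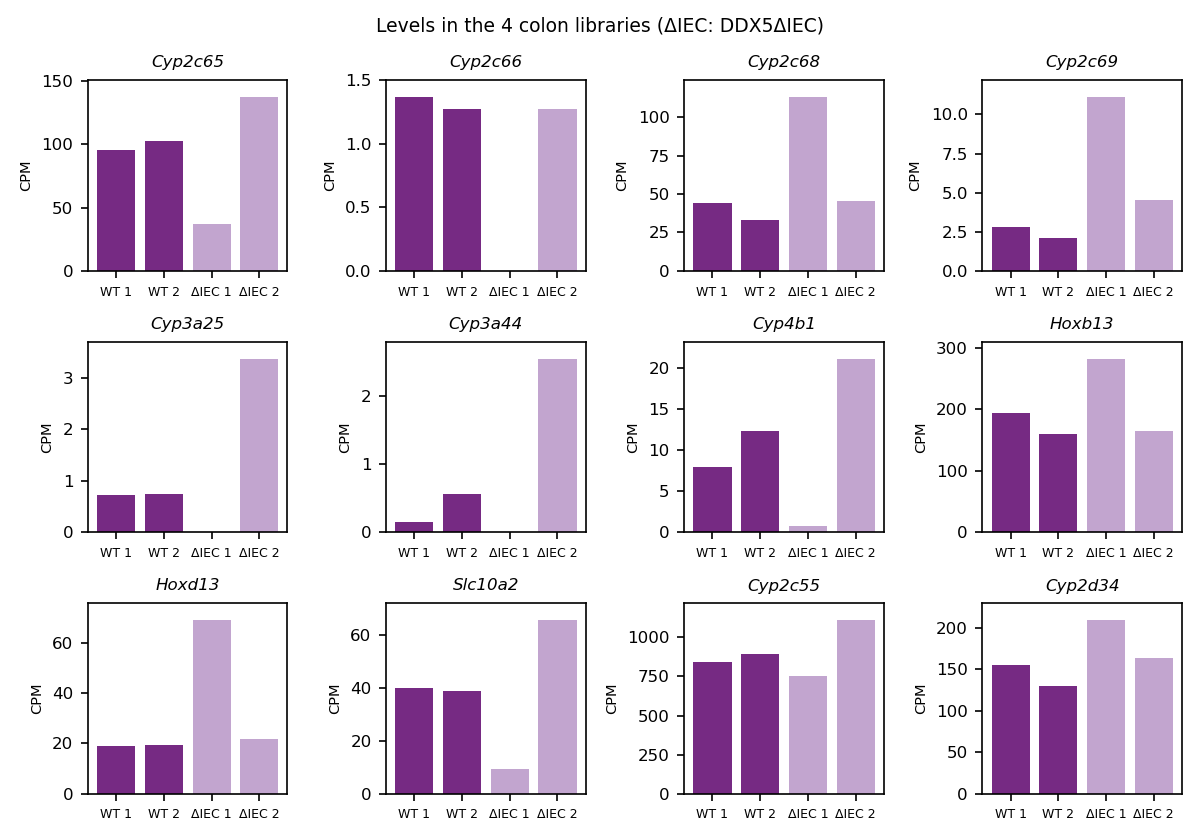
Level in CPM in each of the 4 colon libraries, WT IEC in dark and DDX5ΔIEC in light purple, for 7 members in which DDX5ΔIEC replicate 1 stands apart, for the position markers Hoxb13, Hoxd13 and Slc10a2, and for Cyp2c55 and Cyp2d34. In DDX5ΔIEC replicate 1 Cyp2c66, Cyp3a25 and Cyp3a44 are at 0 while Hoxd13 is at 68.8 CPM.

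Cyp2r1 was called in the colon as well, at 1.52 and 2.64 CPM in WT IEC and 3.26 and 3.78 in DDX5ΔIEC (0.77 ± 0.27). It lost the call without the block (edgeR, adjusted p = 0.453), with DESeq2, without WT IEC replicate 1 (0.40) and without DDX5ΔIEC replicate 2 (0.61), and was at 1.20 without WT IEC replicate 2. It and Cyp2d22 were the members called in both tissues. Cyp4f13, called in the ileum, had a log2 fold change of 0.499 ± 0.136 in the colon (edgeR, adjusted p = 0.321), just under the fold limit. Among members with negative fold changes in the colon, Cyp2j9 (-0.96 ± 0.39) and Cyp2w1 (-0.78 ± 0.35) were lower in both DDX5ΔIEC libraries than in both WT IEC libraries, from at most 42 counts in any colon library, and missed the p limit (edgeR, adjusted p = 0.434 and 0.458). Without the block Cyp2j9 passed it and was the only member called lower (-0.95; edgeR, adjusted p = 0.407).

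Of the 10 members highest per kilobase in WT IEC colon, Cyp2c68 alone passed the criterion. Cyp2c65 (-0.46 ± 0.43) and Cyp2d34 (0.37 ± 0.081), the next after Cyp2c55, did not. Cyp2c55 had a log2 fold change of 0.065 ± 0.14, Cyp4f14 of 0.16 ± 0.17, Cyp3a13 of -0.017 ± 0.13 and Cyp2s1 of -0.082 ± 0.098.

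Whether the genotype effect differed between the tissues was tested over all 8 libraries. The test called 0 of 29 members at an adjusted p under 0.05, with 0.0153% of protein-coding genes called, and 0 members had an unadjusted p under 0.05 (edgeR; DESeq2 gave 0 and 1). The smallest p belonged to Cyp2d26, whose fold change was 0.73 in the ileum and -0.40 in the colon (interaction 1.03 ± 0.46). Cyp3a11 had 1 and 0 counts in WT IEC colon and 2 and 3 in DDX5ΔIEC colon, and a change there was not detectable at this depth.

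Among the electron donors, heme enzymes and receptors that serve the P450s, no gene passed the genotype criterion. Of 19 such genes listed, 18 were tested in each tissue and 0 met the criterion in either (edgeR; 3 in each tissue had an unadjusted p under 0.05). Of protein-coding genes, 1470 of 12064 in the ileum and 1615 of 12557 in the colon had such a p. At the criterion itself 3.78% were called higher and 2.83% lower in the ileum, and 2.64% and 4.01% in the colon. With shares this small, 0 of 18 does not set the list apart. The median log2 fold change was 0.11 for ileal IECs and -0.0099 for colonic IECs. Por was at 68.9 and 81.3 CPM in WT IEC ileum and 115 and 89.4 in DDX5ΔIEC ileum (0.44 ± 0.16), and at 90.3 and 85.7 against 121 and 95.8 in the colon (0.28 ± 0.10). Both DDX5ΔIEC libraries were above both WT IEC libraries in either tissue, below the fold limit. Nr1i2, the receptor that induces Cyp3a genes, had log2 fold changes of 0.19 ± 0.14 in the ileum and 0.25 ± 0.088 in the colon, and Ahr of -0.15 ± 0.17 and -0.14 ± 0.11. Tiparp, a target gene of the aryl hydrocarbon receptor, had -0.38 ± 0.15 in the ileum and -0.44 ± 0.13 in the colon. Ppara had 0.23 ± 0.15 and -0.14 ± 0.21. Nr1h4, another listed receptor, had 0.47 ± 0.14 in the ileum (142 and 120 CPM in WT IEC, 220 and 148 in DDX5ΔIEC) and -0.26 ± 0.24 in the colon. Between the tissues of WT IEC 11 of the 19 differed at an adjusted p under 0.05 by edgeR, 10 of them higher in the ileum. Of protein-coding genes tested, 24.9% were higher in the ileum and 23.1% higher in the colon, so differing between the tissues does not set the list apart. Hnf4g, an HNF4 receptor, had the largest ratio (213 and 256 CPM in the ileum against 32.7 and 31.0 in the colon, log2 ratio 2.88 ± 0.12), while Hnf4a was at 918 and 948 against 608 and 589 CPM (0.64 ± 0.10).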

How the data were processed

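RNAseq of IECs was analysed in 8 libraries, with groups taken from the sample labels. The authors aligned reads to mm10 with STAR 2.6.1a and counted uniquely mapped reads with featureCounts, and the deposited values used here are these raw counts. The files also hold the authors' normalized counts and their comparison (log2 fold change, SE, Wald statistic, p-values), which were not used. A gene listed in 1 table only was counted as 0 in the other tissue.

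Genes were kept by filterByExpr (minimum count 10), scaled by TMM and tested over all genes with edgeR 4.0.16 (R 4.3.3), with Benjamini-Hochberg adjustment. Genotype fits had the replicate number as a block, since the authors fitted a harvest covariate and no other label can stand for it. Deviations of same-numbered libraries correlated at -0.034 in the colon and 0.26 in the ileum. Fits across tissues had no block. CPM came from 1 TMM scale over all libraries. DESeq2 1.42.0, other filters and scalings, and leaving out each library were alternatives. The fits were also run on simulated counts with the same dispersion (spread between replicates) for every gene and no replicate effect. That run cannot show how they behave when a library stands apart, as DDX5ΔIEC colon replicate 1 does. Shared words of 50 bases came from GENCODE transcripts (GRCm38), and promoters from RefSeq. Python 3.11.15 and Biopython 1.88 were used.

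Genes named are members called for genotype, the 10 highest per tissue, the highest of each subfamily and the 10 with the largest tissue ratio. Others, among them Cyp2c65, Cyp2c66, Cyp3a25 and Cyp4b1 in the colon, were named after their values were seen. Members and lists were chosen with earlier results of these data known. The 2 libraries of a group limit every p-value.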

Additional observations from a re-analysis of the deposited data

How the results depend on the processing

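Each group had 2 libraries. In the colon the 7 called members became 4 with DESeq2 and the replicate block, 0 at an adjusted p under 0.05, 2 with the fold limit raised to 1 (log2), and 4 to 15 with 1 library left out (15 without DDX5ΔIEC replicate 2, 7 higher and 8 lower); without the replicate block there were 8. In the ileum the 8 became 5 with DESeq2 and the block, 4 with all 8 libraries in one fit, 3 at an adjusted p under 0.05, 3 with that higher fold limit, and 5 to 8 with 1 library left out; without the replicate block there were 6. The tissue differences ranged from 20 to 26 members in WT IEC (23 as reported) and from 17 to 23 in DDX5ΔIEC (20), and were 23 and 20 with the replicate number as a block. The interaction called 0 members under each alternative but 1, no filter on low counts, which called 1, Cyp2d26. The called genotype members and the 10 with the largest tissue ratio were refitted 385 times. Of these refits 350 stayed past the threshold, 35 did not, and 0 changed sign. All 35 were refits of genotype calls, and every refit of a tissue ratio stayed past its threshold. The pooled count therefore understates how often genotype calls were lost. Members that were not called are outside this count. Among them, Cyp4b1 in the colon went from 1.03 without DDX5ΔIEC replicate 1 to -3.63 without replicate 2. Causes were not tested. A group left with 1 library was assumed to vary like the others. Low counts limit Cyp3a44, Cyp2c66, Cyp2r1 and all members under 10 counts, and near-identical sister genes limit Cyp2c, Cyp2d and Cyp3a values.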
